A study of Drosophila melanogaster with 3 samples.

Results

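The regions described are the peaks of the fly forkhead protein fd64A that lie at promoters facing one way. A peak was taken where its summit, the base of highest signal, lay within 500 bp of an annotated transcription start site (TSS) and every TSS within that distance was on the same strand. Summits near the TSS of a ribosomal protein gene were left out, which dropped 68 promoter peaks, 37 of them at TSSs facing one way. This left 906 of the 2919 peaks (31.0%) in the list that the authors had thresholded on the irreproducible discovery rate (IDR). Since all TSSs at such a peak point in one direction, each summit has a side, upstream or downstream, which a summit between divergent promoters lacks.

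Chromatin immunoprecipitation followed by sequencing (ChIP-seq) was done on whole Drosophila melanogaster embryos aged 8 to 14 hours, of both sexes, from a transgenic line with fd64A tagged by GFP at its C terminus. The gene is named FoxL1 in current annotation, and the labels give neither the promoter nor the genomic context of the tagged copy. The design holds 3 biological replicates of 1 strain with no other condition, and 1 free-text label calls each sample an input control although the assay and antibody labels name an immunoprecipitation. Peak positions are on dm6, and the files hold peak lists only, so that the sequencing depth is unknown.

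Forkhead proteins bind DNA through a winged helix domain that recognises short AT-rich words such as GTAAACA. In the fly they act in gland, gut, muscle and nervous system development, and several are able to bind sites in closed chromatin. Fly promoters fall into broad kinds. Developmentally regulated ones often carry an initiator, a downstream promoter element (DPE) or GAGA repeats bound by GAGA factor, and broadly used ones often carry the DNA replication-related element (DRE) bound by DREF, the site called motif 1 or a CAGCTG E-box.

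The sequence under several of the strongest one-way summits is shown first, because the results below turn on which words lie within 50 bp of a summit. Each run is 101 bases centred on the summit and is read along the gene, 5′ to 3′, from the RefSeq copy of dm6. The 4 forkhead words searched were GTAAACA and GTAAATA together with ATAAACA and ATAAATA, and they are in capitals, also where they lie on the other strand. The first 6 are the strongest summits with a word among 411 members whose window touched no annotated exon, with 1 chromosome arm left out, and 123 of those 411 had a word.
ph-p, chrX:2137279-2137379, minus strand: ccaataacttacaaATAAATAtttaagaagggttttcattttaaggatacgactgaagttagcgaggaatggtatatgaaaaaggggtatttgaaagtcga
bchs, chr2L:5907550-5907650, plus strand: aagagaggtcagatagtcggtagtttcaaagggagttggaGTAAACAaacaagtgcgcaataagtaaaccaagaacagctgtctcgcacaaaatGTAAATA
RluA-1, chr2L:10474482-10474582, minus strand: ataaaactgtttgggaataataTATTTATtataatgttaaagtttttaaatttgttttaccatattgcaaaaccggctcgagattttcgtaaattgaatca
mir-9378, chr2L:10752048-10752148, minus strand: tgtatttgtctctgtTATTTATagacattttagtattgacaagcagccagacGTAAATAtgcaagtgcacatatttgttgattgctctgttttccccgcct
Rtnl1, chr2L:4997631-4997731, minus strand: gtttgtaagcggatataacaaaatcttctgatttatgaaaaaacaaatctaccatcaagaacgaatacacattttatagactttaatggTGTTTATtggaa
elav, chrX:523442-523542, minus strand: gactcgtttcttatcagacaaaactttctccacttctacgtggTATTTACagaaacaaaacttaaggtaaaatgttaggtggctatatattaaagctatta
CG14100, chr3L:19590567-19590667, minus strand: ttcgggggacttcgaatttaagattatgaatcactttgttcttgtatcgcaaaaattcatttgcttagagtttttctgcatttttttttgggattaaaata
CG18549, chr3R:12449113-12449213, plus strand: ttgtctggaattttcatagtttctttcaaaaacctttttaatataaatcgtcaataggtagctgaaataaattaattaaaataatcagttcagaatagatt

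The runs at CG14100 and CG18549 are the 2 strongest of the same kind that hold none of the 4 words. All 8 runs are rich in A and T, with a GC content of 22.8% at CG18549 to 39.6% at bchs. The words lie at differing distances from the centre. At elav, which encodes a neuronal RNA-binding protein, the word lies next to the summit, and at Rtnl1, the gene of an ER-shaping reticulon, it lies near the 3′ end of the run. The summit at bchs, the gene of a protein of autophagy, holds 2 words, of which GTAAACA lies beside the centre.

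The strongest one-way peaks were found in all 3 replicates. Peak strength is the authors' deposited signal, whose scale is not given in the sources used here, and the pooled and single-replicate lists are not on 1 scale. The strongest peak lay 210 bp upstream of an internal TSS of px (plexus, which acts in wing vein patterning). Its signal was 1042 in replicate 1, 850.02 in replicate 2 and 857 in replicate 3, where it ranked 3, 3 and 1. Ugalt, which encodes a UDP-galactose transporter, followed with 1051, 898 and 766, from a summit 44 bp upstream of its TSS. Both held a forkhead word within 50 bp of the summit.

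The third strongest, at the start of the noncoding RNA gene lncRNA:CR31840, had 1015, 895 and 795 in replicates 1, 2 and 3, and no forkhead word at the summit. The peak of ph-p, the gene of a Polycomb group protein, had 722, 630.07 and 590, from a summit 474 bp upstream of an internal TSS. The other 8 of the strongest 12 lay at CG14100, CG1888, PNPase (an RNA-degrading enzyme), CG18549, Tina-1, lncRNA:CR31044, CG1635 and Toll-7 (a receptor of the Toll family). All 12 were among the 2919 strongest peaks of every replicate, and 10 of the 12 summits lay upstream. Of the 12, 4 held a forkhead word.

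**Figure D1:**
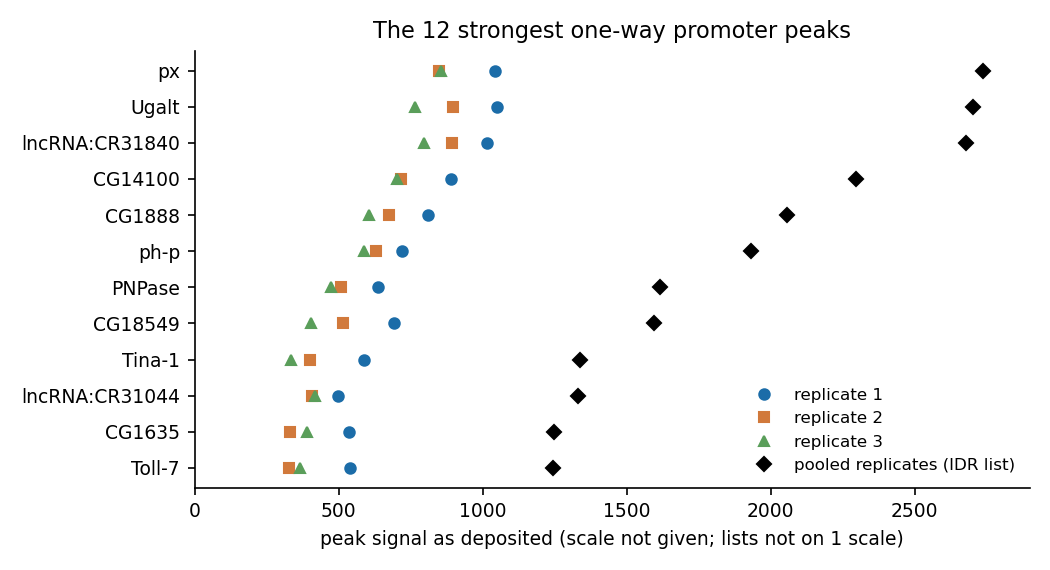
Deposited peak signal (x axis, scale not given) of the 12 strongest one-way promoter peaks (rows, named by the gene of the nearest TSS) in replicates 1, 2 and 3 and in the pooled list from which the IDR list comes. Replicate 1 gave the highest of the 3 replicate values at each of the 12 genes.

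One-way peaks were about as strong as the other kinds of peak in the list, a description with no test. Their median signal was 277, against 264 for the 256 peaks at promoters facing both ways and 277 for the 851 intronic peaks at over 500 and up to 5000 bp from a TSS. They supplied 8 of the strongest 20 and 34 of the strongest 100 peaks, and 865 of the 906 had a deposited q-value under 0.05. The same position rule took 931, 1032 and 912 of the 2919 leading peaks of replicates 1, 2 and 3, which is 32.8% ± 2.21 (SD, n = 3). A further 5705 one-way promoter peaks of the pooled list lay outside the IDR list. These weaker peaks had a median signal of 83.1 and none had a q-value under 0.05. Their highest signal, 190.03, lay just below the lowest of the IDR list, 190.04. The pooled list is labelled by the authors as peaks and background, so some of the weaker peaks may be background. How many was not tested. They serve as promoters of the same layout with lower deposited signal, not as promoters known to bind fd64A or to be free of it.

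The 906 summits belonged to 819 nearest genes, of which 745 had 1 summit, 63 had 2, 9 had 3 and 2 had 4. Protein-coding genes took 791 summits and noncoding RNA genes 107. Genes with 3 or more summits had several promoters in use by the annotation. Ptpmeg2, a tyrosine phosphatase gene, had 4 summits, each 135 to 192 bp upstream of a different TSS, with pooled signals of 884, 837, 596 and 191. Drat also had 4, and CG14968, CG1888, CG5953, FoxK (a forkhead gene), Pgk (phosphoglycerate kinase), RapGAP1 (a GTPase activator of Rap1), Rtnl1, SNF4Agamma (the gamma subunit of AMP-activated kinase) and dnc (a cAMP phosphodiesterase) had 3 each. In all, 46 members overlapped another member, among them pairs at Drat, FoxK and RapGAP1 that matched a single peak in a replicate, so summits of a gene are not independent.

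Peaks of the IDR list lay upstream of the TSS more often than weaker ones. Of the one-way summits, 597 of 906 lay upstream (65.9%, 95% Wilson interval 62.7 to 68.9), against 2368 of 5705 weaker summits (41.5%, 40.2 to 42.8). The ratio was 1.59 (Fisher's exact test, two-sided, adjusted p = 1.01e-41 over 10 tests). In replicates 1, 2 and 3 the leading peaks gave 65.7%, 59.3% and 63.0% upstream and the rest of each list 43.1%, 41.0% and 39.2%, so the ratio was above 1 in 3 of 3. All these intervals and tests treat peaks as independent and cover counting error only. A weaker peak was left out if it overlapped a peak of the IDR list, but not if it shared a TSS with a member. At such a TSS it can only lie beside the member, which limits its side, and the same TSS counts in both sets. The part of this in the difference was not tested.

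The median one-way summit lay 95.5 bp upstream and the median weaker summit 55 bp downstream. The replicates' leading peaks had medians of 111, 44.5 and 83.5 bp upstream. The stretch 100 to 200 bp upstream held 21.7% of the one-way summits and 10.7% of the weaker ones, while the stretch within 50 bp of the TSS held 15.2% and 15.3%. Beyond 250 bp downstream lay 9.05% of the one-way summits, against 22.5% of the weaker ones. Only 10 one-way summits (1.10%) fell in coding exons, where 19.1% of the weaker summits lay.

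**Figure D2:**
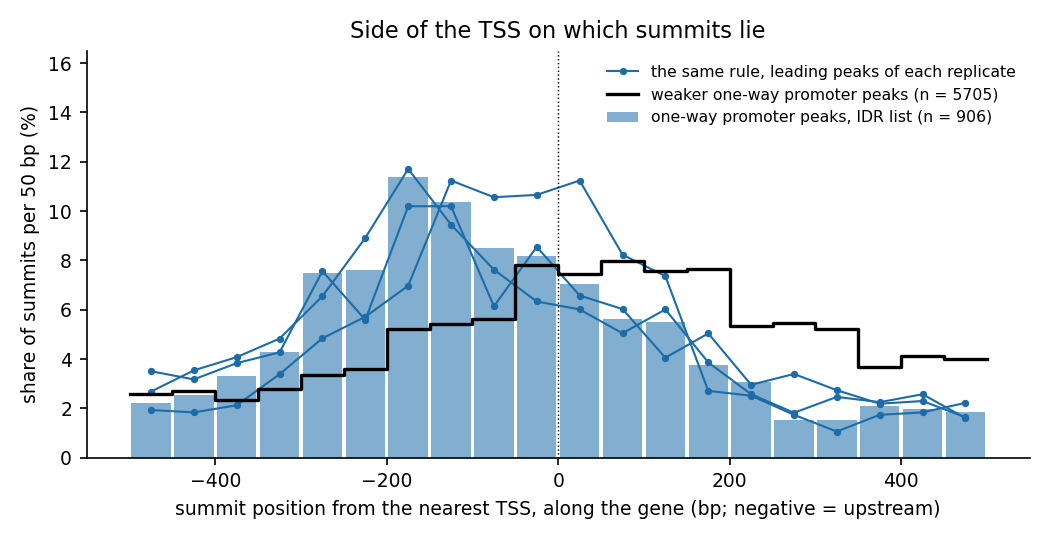
Share of summits (y axis, percent per 50 bp) by position from the nearest TSS along the gene (x axis, bp, negative upstream) for one-way promoter peaks of the IDR list (bars), the leading one-way peaks of each replicate (lines with points) and weaker one-way promoter peaks (black steps). The bars are highest between 100 and 200 bp upstream, and the black steps lie above the bars beyond 50 bp downstream.

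The upstream share was largest among the strongest members. Cut by pooled signal into 4 groups of 226 or 227, it was 77.5% in the strongest, then 63.9%, 60.2% and 61.9%. This is a description with no test. The side was also compared with the replicates' own lists, which feed the pool and so give no independent check. Where a member overlapped a leading peak of replicate 1, 2 or 3, the replicate's own summit lay on the same side in 97.2%, 94.7% and 96.2% of cases. Over the 903, 902 and 890 members that overlapped any of the 30000 peaks of replicates 1, 2 and 3, the median shift between both summits was 13, 26 and 14 bp.

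At genes with several promoters the upstream share also varied with the promoter. Internal promoters held 304 members, of which 76.3% lay upstream, against 58.8% of 165 at the first promoter of such genes and 61.3% of 437 at genes with 1 promoter. These shares were not tested against each other. Members lay at genes with several promoters in 51.8% of cases and weaker peaks in 37.8%, and the share of internal promoters among these was 64.8% and 63.4%. The median length of the protein-coding genes was 8200 bp for members and 3850 bp for weaker peaks.

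Forkhead words were more frequent at one-way summits than beside them. At 234 of 906 summits (25.8%, 95% Wilson interval 23.1 to 28.8) any of the 4 words was found within 50 bp. The window 500 bp upstream of each summit held one in 19.5% of cases, a ratio of 1.32 (exact McNemar test, two-sided, adjusted p = 0.00382). The window 500 bp downstream held one in 14.6%, a ratio of 1.77 (exact McNemar test, adjusted p = 1.88e-08). For comparison, 13.3% of all windows of the same length tiled over the 6 chromosome arms held one.

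In replicates 1, 2 and 3 the share at leading one-way summits was 27.3%, 22.2% and 24.3%, above both flanks each time. The difference from the upstream flank did not pass with summits limited to 250 bp from a TSS (ratio 1.21, exact McNemar test, adjusted p = 0.113) or with windows of 100 bp to each side (ratio 1.08, adjusted p = 0.276). Summit windows had a GC content of 40.6%, against 37.7% in upstream flanks, which held fewer words although richer in A and T, and 43.3% in downstream flanks. The part of base composition in the differences was not tested.

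The strict word GTAAACA was more frequent at summits than beside them. It lay at 62 summits (6.84%), against 19 upstream flanks (2.10%) and 22 downstream flanks (2.43%), and in 1.89% of windows over the arms. The ratios were 3.26 to the upstream flanks (exact McNemar test, adjusted p = 3.83e-06) and 2.82 to the downstream flanks (exact McNemar test, adjusted p = 2.82e-05). Its letters read backwards, ACAAATG, have the same composition and lay at 31 summits (3.42%), 33 upstream flanks (3.64%) and 28 downstream flanks (3.09%), with 2.79% over the arms. The reversed word was added after the values had been seen, and no test was made on it. Within 40 bp of the summits there were on average 1.66 strict words per 100 peaks per 20 bp, against 0.773 at 200 to 300 bp upstream and 0.552 at 200 to 300 bp downstream, while the reversed word gave 0.717, 0.773 and 0.706.

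**Figure D3:**
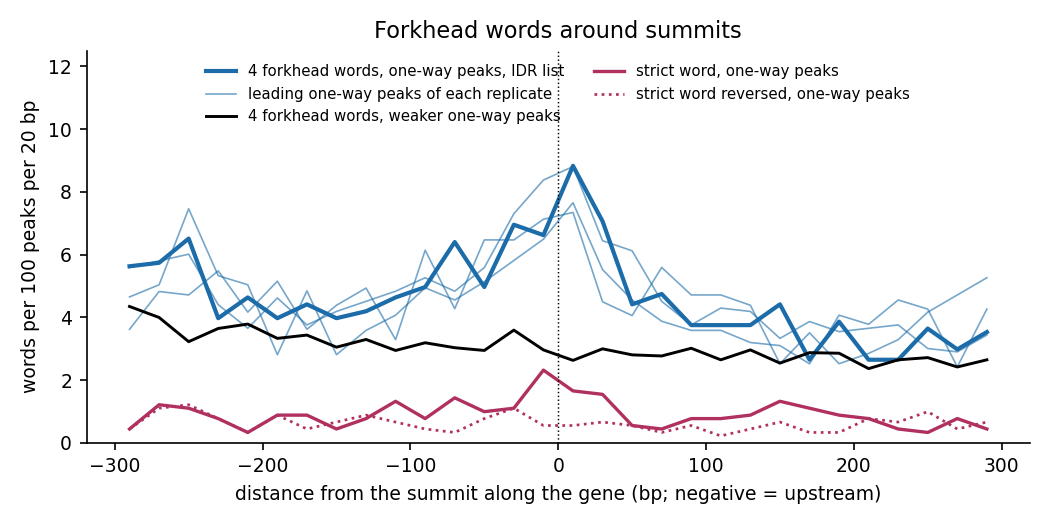
Words per 100 peaks per 20 bp (y axis) by distance from the summit along the gene (x axis, bp, negative upstream) for the 4 forkhead words at one-way peaks of the IDR list (thick line), at the leading one-way peaks of each replicate (thin lines) and at weaker one-way peaks (black), with the strict word and its reverse at one-way peaks of the IDR list (red, plain and dotted). The 4 words average 7.37 within 40 bp of the summit, against 5.30 far upstream and 3.09 far downstream, and the black line has no peak at the centre.

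No strand preference of the words was detected. Of 306 words within 50 bp of the summits, 154 were on the gene's own strand (50.3%, 95% Wilson interval 44.8 to 55.9, exact binomial test against 50%, adjusted p = 0.954). The interval leaves room for a share of up to 55.9%. Upstream summits held a word in 27.5% and downstream summits in 22.7% of cases, a ratio of 1.21 that did not pass (adjusted p = 0.183, Fisher's exact test). There were 60 summits with 2 words or more, with 4 the most.

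By distance from the TSS the words were scarcest just inside the gene. They lay at 30.4% of summits 300 to 500 bp upstream, 14.8% of those from the TSS to 100 bp downstream and 31.8% of those 200 to 500 bp downstream. The GC content of those windows was 36.1%, 45.8% and 41.4%. The strict word did not follow this pattern, at 3.57%, 6.96% and 9.09% in the same order. Its reverse was at 8.04%, 1.74% and 3.64%. By signal, the share with any of the 4 words was 35.7% in the strongest of the 4 groups, then 26.4%, 22.1% and 19.0%. The GC content was 34.8%, 40.5%, 43.5% and 43.6%. These shares are given with no test.

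The 6 strongest members with GTAAACA lay at Toll-7, bchs, Stat92E, Hmt4-20, shn and CG6785. Stat92E, the transcription factor of the JAK/STAT pathway, had signals of 422, 252 and 230.3 in replicates 1, 2 and 3, from a summit 372 bp downstream of an internal TSS. Hmt4-20, which methylates histone H4, had 339, 256 and 209, and shn, which encodes a zinc-finger protein that acts in Dpp signalling, had 308, 224 and 229. The peaks of all 6 were among the leading peaks of each replicate.

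Promoters facing both ways and introns offer a comparison within the same list. Two-way summits held a forkhead word in 29.3% of cases, and the share at one-way summits was 0.882 times that, which did not pass (adjusted p = 0.329, Fisher's exact test). The interval of 24.1% to 35.1% for the two-way share covers the one-way value. Intronic summits at over 500 and up to 5000 bp from a TSS held one in 36.8%, so that one-way summits were lower, at 0.702 times (adjusted p = 1.84e-06, Fisher's exact test). In replicates 1, 2 and 3 this ratio was 0.707, 0.610 and 0.725.

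Weaker one-way promoter peaks held a word in 12.4% of cases. One-way summits of the IDR list were higher, at 2.08 times (adjusted p = 9.34e-23, Fisher's exact test), with 1.99, 1.76 and 2.28 times in the replicates. The GC content was 40.6% for one-way, 36.5% for two-way, 37.9% for intronic and 47.3% for weaker one-way windows, so that it was lower where the share was higher except between two-way and intronic windows. Its part in these differences was not tested. The strict word lay at 6.84% of one-way, 8.98% of two-way, 11.3% of intronic and 3.26% of weaker summits. The reversed word lay at 3.42%, 2.73%, 4.82% and 2.59% in the same order.

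**Figure D4:**
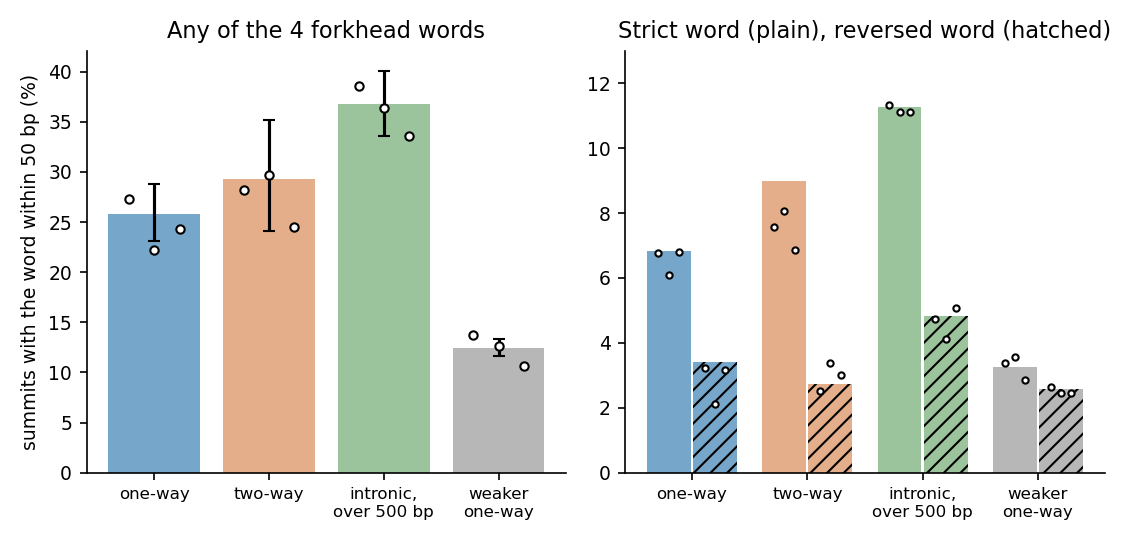
Share of summits (y axis, percent) with any of the 4 forkhead words within 50 bp (left panel, bars with 95% Wilson intervals) and with the strict word or its reverse (right panel, plain and hatched bars) for 906 one-way, 256 two-way, 851 intronic and 5705 weaker one-way peaks, with open circles for replicates 1, 2 and 3. One-way summits lie between weaker one-way and intronic summits. The strict word exceeds its reverse in each class, at 3.26% against 2.59% in the weaker one-way peaks.

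Core promoter elements differed between promoters facing one way and both ways. Each was searched at its usual place from the nearest TSS. Of 8 elements, 7 passed against two-way promoter peaks (87.5%), 3 higher and 4 lower at one-way promoters, by Fisher's exact test with Benjamini-Hochberg adjustment over the 8. GAGA repeats (GAGAGAG within 150 bp upstream, either strand) were at 169 of 906 one-way promoters (18.7%) and 5 of 256 two-way promoters (1.95%), a ratio of 9.55 (adjusted p = 2.27e-13, Fisher's exact test). The replicates' leading peaks gave ratios of 12.6, 6.11 and 3.69.

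The initiator words TCAGTC and TCAGTT, searched within 5 bp of the TSS on the gene's strand, were at 14.8% of one-way and 7.03% of two-way promoters (ratio 2.10, adjusted p = 0.0012, Fisher's exact test). DPE words (AGACGTG and AGTCGTG together with GGACGTG and GGTCGTG, 20 to 40 bp downstream) were at 3.75% and 0.781% (ratio 4.80, adjusted p = 0.0172, Fisher's exact test), the two-way share resting on 2 promoters. Neither passed in the stronger 1460 peaks of the IDR list or among peaks found in any 2 given replicates. The ratios there were 1.49 to 1.57 for the initiator and 1.87 to 3.20 for the DPE.

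Elements of broadly used promoters were lower at one-way than at two-way promoters. The DRE (TATCGATA, within 150 bp upstream) was at 2.98% of one-way and 10.2% of two-way promoters, a ratio of 0.293 (adjusted p = 3.7e-05, Fisher's exact test). The CAGCTG E-box, searched between 100 bp upstream and 20 bp downstream, was at 10.9% and 20.7% (ratio 0.528, adjusted p = 0.000182, Fisher's exact test), and it no longer passed among peaks found in replicates 1 and 2 (ratio 0.645, adjusted p = 0.0985). Motif 1 (GGTCACAC, in the same stretch) was at 3.20% and 6.64% (ratio 0.482, adjusted p = 0.0202, Fisher's exact test), but replicate 3 gave a ratio of 1.09. It did not pass in the stronger 1460 peaks, where the ratio was 0.998, or when any replicate was left out, where the ratio was 0.535 to 0.842. At weaker one-way promoters the DRE, E-box and motif 1 were at 4.63%, 10.3% and 4.43%. Over all 23584 annotated TSSs they were at 5.14%, 9.15% and 4.07%. The E-box share at one-way promoters was thus near both of these, and the two-way share was above both.

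Forkhead words placed by the TSS, within 150 bp upstream, were at 21.0% of one-way and 34.0% of two-way promoters, a ratio of 0.617 (adjusted p = 7.96e-05, Fisher's exact test). They were at 22.3% of weaker one-way promoters and 24.8% of all annotated TSSs. The TATA box (TATAAA, 20 to 40 bp upstream) was at 3.64% and 2.34% and did not pass (adjusted p = 0.431, Fisher's exact test). Each two-way promoter has a TSS of the other strand within 500 bp of its summit, so that its upstream window can also belong to the opposite gene.

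Against weaker one-way promoter peaks, which share the layout, 2 of 8 elements passed (25%), both higher. A TSS with both a member and a weaker peak beside it can count in both sets. GAGA repeats were at 18.7% of members and 8.05% of weaker promoters (ratio 2.32, adjusted p = 2.18e-19, Fisher's exact test), with ratios of 2.26, 2.37 and 2.39 in replicates 1, 2 and 3. Over all 23584 annotated TSSs the share was 4.76%. DPE words were at 3.75% and 1.96% (ratio 1.91, adjusted p = 0.00567, Fisher's exact test), which did not pass in the stronger 1460 peaks (ratio 1.66, adjusted p = 0.169) or when any replicate was left out (ratios of 1.48 to 1.77).

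**Figure D5:**
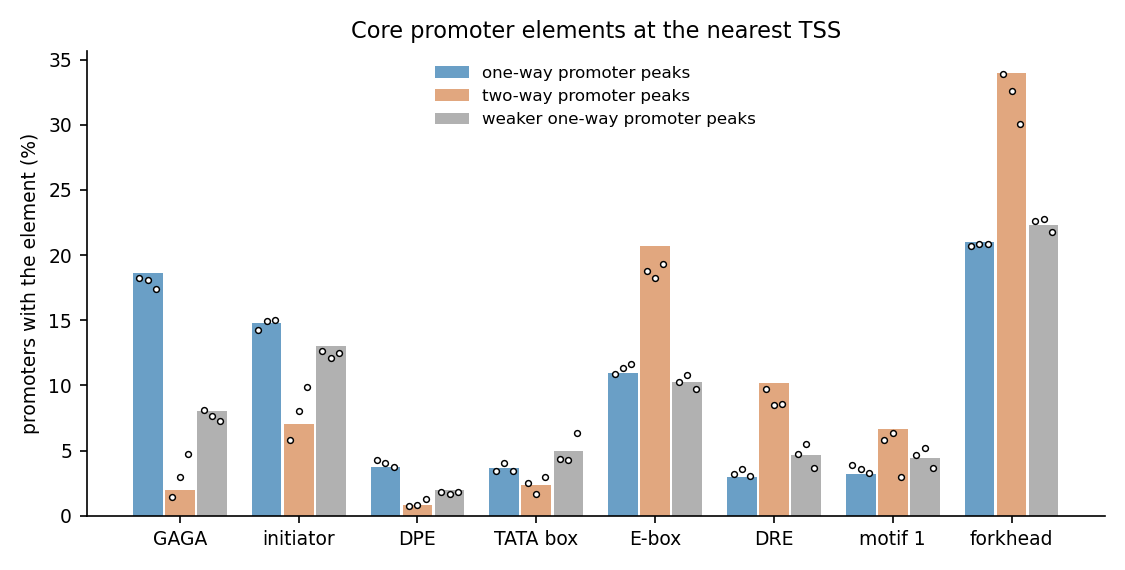
Share of promoters (y axis, percent) with each of 8 core elements at its place from the nearest TSS (x axis) for one-way promoter peaks, two-way promoter peaks and weaker one-way promoter peaks, with open circles for replicates 1, 2 and 3. GAGA stands at 18.7%, 1.95% and 8.05% in the 3 classes, and the E-box, DRE, motif 1 and forkhead bars are highest at two-way promoters.

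The GAGA repeats at one-way promoters were most frequent from 50 to 100 bp upstream of the TSS, at 10.5% of members and 4.36% of weaker promoters, against 1.17% of two-way promoters, where 3 other stretches of 50 bp held as many. From 100 to 150 bp upstream the shares were 7.62%, 0.391% and 3.30%, and from the TSS to 50 bp downstream 1.43%, 0.391% and 1.07%. They were at 26.0% of internal promoters with a member, against 17.0% of first promoters and 14.2% at genes with 1 promoter. Forkhead words lay at the summits of 27.8% of the 169 members with GAGA repeats and 25.4% of the other 737. Neither comparison was tested.

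The panel of 30 motifs around the summits gave few calls. Against two-way promoter peaks 3 of 30 passed (10%, Fisher's exact test with Benjamini-Hochberg adjustment over the panel). GAGA repeats lay within 50 bp of 4.97% of one-way and 0.391% of two-way summits (ratio 12.7, adjusted p = 0.00571, Fisher's exact test), the second share being 1 summit of 256. The Mad words GACGNC and GGCGNC, read by the Smad proteins of Dpp signalling, lay at 16.8% and 8.20% (ratio 2.05, adjusted p = 0.00699, Fisher's exact test). The CAGCTG E-box lay at 5.52% and 11.7% (ratio 0.471, adjusted p = 0.0114, Fisher's exact test). Over all windows of the 6 arms the shares were 1.24% for GAGA repeats, 16.1% for the Mad words and 4.24% for the E-box. None of the 30 passed Fisher's exact test after adjustment in the stronger 1460 peaks, where 2 had an unadjusted p under 0.05. There 19 of 461 one-way and 0 of 115 two-way summits held GAGA repeats and the E-box ratio was 1.43. Among peaks found in 2 given replicates, 0 passed without replicate 1, 0 without replicate 2 and 2 without replicate 3, with 6, 5 and 4 at an unadjusted p under 0.05 by Fisher's exact test.

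Against intronic peaks 4 of 30 passed (13.3%). The ETS words ACCGGAAA and ACCGGAAG lay at 1.77% of one-way and 0.235% of intronic summits (ratio 7.51, adjusted p = 0.0109, Fisher's exact test). The other 3 were the forkhead words, the strict word and the panel's control, the forkhead pattern read backwards, which shares ATAAATA with the forkhead words. All 3 were lower at one-way summits, with ratios of 0.702, 0.607 and 0.735. Without replicates 1, 2 and 3 in turn, 3, 0 and 2 of the 30 passed, with 5, 4 and 6 at an unadjusted p under 0.05 by Fisher's exact test, and the strict word passed in none of these. The ETS words passed without replicate 1 (ratio 11.4) and not without replicate 2 or replicate 3. They did not pass with 1 peak per gene (ratio 5.64, adjusted p = 0.0597, Fisher's exact test) or with windows of 25 bp (ratio 2.82), and nothing in the panel passed in the stronger 1460 peaks (5 at an unadjusted p under 0.05, Fisher's exact test).

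Against weaker one-way peaks 10 of 30 passed (33.3%), 9 higher and 1 lower. Among the higher ones were the forkhead words, the strict word and the backward control pattern. That control lay at 20.2% against 11.3% (ratio 1.78, adjusted p = 3.15e-11, Fisher's exact test). Also higher were TATAAA at 14.8% against 7.45%, GAGA repeats at 4.97% against 3.24% and the GATA words AGATAA and TGATAA at 15.7% against 11.0%. So were the homeodomain word TAATTA at 6.18% against 3.40%, the Mef2 site at 3.86% against 2.05% and the ETS words at 1.77% against 0.386%. The Mad words were lower, at 16.8% against 22.5% (ratio 0.746, adjusted p = 0.000389, Fisher's exact test). Over all windows of the 6 arms, TATAAA lay in 11.7%, GAGA repeats in 1.24% and the GATA words in 11.4%. The homeodomain word lay in 6.47%, the Mef2 site in 3.20%, the ETS words in 0.462% and the Mad words in 16.1%. Members were near these shares for the homeodomain, Mef2 and Mad words. The GC-rich Mad words and the AT-rich TATA, homeodomain and Mef2 words thus lay on opposite sides, and the weaker windows were richer in GC, at 47.3% against 40.6%. The part of base composition in these calls was not tested. The call of GAGA repeats at summits was lost when any replicate was left out, with ratios of 1.06 to 1.23, and in every other alternative run but windows of 100 bp. The GATA call was lost with the 250 bp limit (ratio 1.25, adjusted p = 0.101, Fisher's exact test), and with windows of 25 bp the GATA, Mef2, ETS and Mad calls were lost too.

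Most members were found again in each replicate. Of 906, 518 (57.2%) overlapped a leading peak of all 3 replicates, 262 of 2, 122 of 1 and 4 of none. The share of two-way peaks found in all 3 was 47.7%, so one-way peaks were higher by a ratio of 1.20 (adjusted p = 0.0140, Fisher's exact test). The difference lay mainly in replicate 2, whose leading peaks overlapped 81.3% of one-way and 69.1% of two-way peaks, against 83.1% and 84.0% in replicate 1 and 78.4% and 73.4% in replicate 3. Without replicate 2 the ratio was 1.06 and did not pass (adjusted p = 0.370, Fisher's exact test), and in the stronger 1460 peaks it was 1.02.

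Intronic peaks were found in all 3 in 58.8% of cases, which did not differ from one-way peaks past the threshold (ratio 0.973, adjusted p = 0.589, Fisher's exact test). Among members the share found in all 3 was 97.4% in the strongest of the 4 groups, then 82.8%, 40.3% and 7.96%. Found here means overlap with a leading peak of each replicate, and the replicates feed the pooled signal that set the groups. Members of low pooled signal therefore tend to lie below a replicate's cut. The fall thus follows largely from the definition and cannot show whether repeatability depends on strength. Of the 906 members, 903, 902 and 890 overlapped any peak of replicates 1, 2 and 3. One strong member not found in all 3 was Gapdh2, a glycolytic gene with IDR rank 56. Its peak had signals of 472 and 284 in replicates 1 and 2 and overlapped no peak of replicate 3.

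One-way peaks were spread over many kinds of genes. Of 10455 protein-coding genes with a TSS that meets the rule, 697 carried a member (6.67%), and the replicates' leading peaks gave 712, 821 and 689. Lists of genes are described by their counts beside this share, with no test, and genes with a member are longer (median 8200 bp) than all those with such a TSS (2293 bp). Counts of listed genes with a forkhead word at a summit rest on few genes, some with several summits. They were not tested, and 25.8% of all member summits held a word. Genes of the actin and microtubule cytoskeleton had the highest count, 9 of 23, and translation factors 7 of 18. The replicates gave 7, 10 and 6 of the cytoskeletal genes and 6, 9 and 5 of the translation factors.

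Among cytoskeletal genes, sqh (the regulatory light chain of nonmuscle myosin) had signals of 145, 65.5 and 149 in replicates 1, 2 and 3. The spectraplakin gene shot had 122, 91.7 and 94.1, and alphaTub84B, an alpha-tubulin gene, had 119, 105 and 91.0. Act42A, an actin gene, carried no member. Only dia, the formin gene, held a forkhead word at its summit among the 9.

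Among translation factors, eEF1gamma stood out, with signals of 353, 268 and 317 and a summit on its TSS. The elongation factor gene eEF2 had 139, 88.6 and 110.2 from a summit 34 bp downstream, and Thor, which encodes the inhibitor 4E-BP, had 116, 115 and 115 from a summit 22 bp upstream with GTAAACA beside it. Of the 7 genes, 2 had a word at a summit, and eEF1alpha2 carried no member.

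Glycolytic genes carried members in 5 of 16 cases, namely Gapdh2, Hex-A (hexokinase), Eno (enolase), Pgk and Ldh (lactate dehydrogenase). The replicates gave 5, 5 and 7. Hex-A had signals of 277, 91.6 and 183, and Eno 176, 74.1 and 162, so that replicate 2 was the lowest for both. Pgk had 3 summits, each upstream of a different TSS, and 1 of them held GTAAACA. Ald1 (aldolase) carried no member.

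Chromatin genes carried members in 4 of 22 cases. All 4 had a forkhead word at a summit, beside 25.8% of all member summits, a count of few genes that was not tested. The 4 were ph-p, gro (groucho, a corepressor), Trl, which encodes GAGA factor itself, and Psc (Posterior sex combs). The gro peak had signals of 209, 132 and 133 from a summit 124 bp upstream. Trl had 2 summits, with 123, 91.7 and 125 at the one 262 bp upstream that held GTAAACA, and 103, 119 and 107 at the one 102 bp downstream, whose promoter held GAGA repeats. Asx carried none.

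Among signalling genes, intracellular components carried members in 6 of 26 cases, 3 with a word, and Stat92E, shn and sgg (the GSK3 kinase, with signals of 222, 170.4 and 180.0) were the strongest. Ligands and receptors carried members in 5 of 29, none with a word, led by arr (the LRP5/6 coreceptor of Wingless) with 227, 90.3 and 138, spi (an EGF receptor ligand) with 210.3, 143 and 148, and ptc (the Hedgehog receptor) with 107, 64.0 and 90.8. Alk and Akt carried none. Adhesion and polarity genes carried members in 6 of 27, 3 with a word. The integrin gene scb was the strongest of these, with 339, 104 and 196, followed by sdt (a partner of Crumbs) and robo2 (a Slit receptor).

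Nuclear receptor and ecdysone response genes carried members in 5 of 20 cases. These were Eip75B, Hnf4, ftz-f1, Hr4 and ERR, and Eip75B was the strongest, with signals of 210, 53.1 and 118. Patterning factors carried members in 4 of 27, namely Dll, cad, bcd and ems. Dll (Distal-less, which acts in limb formation) had 133, 103 and 84.5, and none of the 4 genes had a forkhead word at a summit. The replicates gave 3, 5 and 1 of these, a spread as wide as the count itself.

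The forkhead family carried members in 3 of 16 cases, and the replicates gave 3 each. The gene fkh, which directs salivary gland formation, had signals of 459, 340 and 350 from a summit 218 bp upstream and no forkhead word at it. FoxK had 3 summits, the strongest with 251, 183 and 242, and the weaker 2, which matched 1 peak per replicate, held words. CHES-1-like had 2 summits at promoters with GAGA repeats and no forkhead word. The factor gene bin carried none.

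In the remaining lists the counts were low and, at these list sizes, close to the share over all such genes. Contractile protein genes carried members in 2 of 23 cases (sls, the titin homologue, and Zasp52), neuronal genes in 2 of 27 (elav and Syx1A, a syntaxin), membrane traffic genes in 2 of 17 (Rab5 and Syx1A) and cell cycle genes in 1 of 21 (fzr). None of 13 proteasome genes and none of 26 olfactory and gustatory receptor genes carried one, which allows shares of up to 22.8% and 12.9% (upper 95% Wilson limits). The elav peak had signals of 359, 262 and 258 from a summit 266 bp upstream, at a promoter with GAGA repeats, and Rab5, a GTPase of early endosomes, had 197, 92.8 and 183.

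Some member genes held other peaks. Of the 819 genes, 225 (27.5%) contained at least 1 further summit of the IDR list that was not a one-way promoter summit, a share that was not compared with other genes. By position, 331 member summits lay in introns of another or the same gene, 273 between genes, 227 in 5′ untranslated regions, 59 in noncoding exons, 10 in coding exons and 6 in 3′ untranslated regions.

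The 500 bp limit divides similar peaks. Just inside it were the summits at lncRNA:CR44619, 500 bp from the TSS with a pooled signal of 599, and lncRNA:CR32660, 499 bp away with 371. Just outside were summits 502 bp from a TSS of jar, with 490.4, and 503 bp from t-cup, with 565.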

How the data were processed

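The 5 deposited files are narrowPeak lists on dm6, namely 1 relaxed list of 30000 peaks for each of 3 biological replicates, 1 for their pool, and the IDR list. Which aligner, caller and IDR threshold made them is not given in the sources used here. Sonication gave fragments of 200 to 800 bp, per the labels. The peak signal is the authors' deposited value and was used to describe and rank peaks within a list. The −log10 q-value the authors deposited served to count peaks with q under 0.05. The embryo age is that of the source name, since the age label holds an implausible value.

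TSSs came from Ensembl release 115 without transposable elements, on 6 arms, and sequence from the RefSeq copy of the same assembly. The class rule was applied to the 2919 leading peaks of each replicate for the spread. Of 443 listed gene names, 428 matched by symbol, 10 by synonym and 5 not at all. Genes named are the 12 strongest members, those with 3 or more summits, the 6 strongest with GTAAACA, up to 3 per list with the strongest peak and 1 without, and those at the limit, with a few others named where a count was 5 or fewer, chosen after their values were seen. Motifs were searched on both strands unless a strand is given.

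Shares were compared by two-sided Fisher's exact tests, flanks by exact McNemar tests and strands by an exact binomial test, with Benjamini-Hochberg adjustment over 10 tests or within each motif panel. Tests are over peaks, since 3 replicates allow no two-sided sign test p under 0.25. The work used SciPy 1.17.1, pandas 2.3.3 and NumPy 2.4.6 under Python 3.11.15, with matplotlib 3.10.9 for plots, and the search and the tests were checked on simulated data. The members and lists were chosen with earlier results of these data known. The alternatives were the stronger 1460 peaks of the IDR list, q under 0.05, other distance limits, windows, flanks and TSS sets, 1 peak per gene, GTAAACA alone, a stricter overlap, and leaving out each replicate.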

Additional observations from a re-analysis of the deposited data

How the results depend on the processing

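Of 390 alternative values over 42 results, 306 were counted as unchanged and 61 kept their direction but no longer passed. A further 22 moved by more than the spread or by more than 1.5 times, and 1 reversed. Those counted as unchanged include results that passed in neither run, whose direction could change. The share of forkhead words on the gene's strand was 47.1% in the stronger 1460 peaks and 49.8% with q under 0.05, against 50.3%. GAGA repeats, the DRE and forkhead words placed by the TSS against two-way promoters, and GAGA repeats against weaker promoters, passed in every alternative run. In the stronger 1460 peaks the ratio for peaks found in all 3 replicates, one-way against two-way, was 1.02 (Fisher's exact test, adjusted p = 0.629), the motif panel gave 0 calls against two-way peaks and 0 against intronic peaks (2 and 5 at an unadjusted p under 0.05, Fisher's exact test), the core elements gave 4 calls against two-way and 1 against weaker promoters, and the E-box ratio at summits turned to 1.43. With a limit of 250 bp that first ratio was 1.07 (adjusted p = 0.422, Fisher's exact test), forkhead words at summits against upstream flanks gave 1.21 (adjusted p = 0.113, exact McNemar test), 26.3% of the replicates' leading peaks were one-way, the motif panel gave 9 calls against intronic peaks and the core elements 1 against weaker promoters. With protein-coding TSSs only, 30.5% were one-way. Windows of 100 bp to each side gave a ratio to the upstream flank of 1.08 and 7 motif calls against two-way and 7 against intronic peaks. Windows of 25 bp gave 2 motif calls against intronic and 5 against weaker peaks. Leaving out each replicate gave ratios of 1.06 to 1.21 for peaks found in the rest, 0 to 2 motif calls against two-way peaks and 0 to 3 against intronic peaks, where 4 to 6 had an unadjusted p under 0.05 in both (Fisher's exact test), 3 to 4 core calls against two-way and 1 against weaker promoters. Each stronger or left-out set also holds fewer peaks, and otherwise the cause was not tested. The depth is unknown, so the lists limit what can be called as a peak at all. No paired analysis was possible because there is 1 group.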
